A study of Dendrobium nobile with 12 samples.

Results

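Stem and labellum of the orchid Dendrobium nobile were compared across gene models, with 2 RNA-seq libraries of each tissue, taken by their tissue labels from 12 libraries of 6 tissues. The pair itself was chosen for its measured rank correlation. The organism label of each library names D. nobile, while the design text of the series names D. officinale, so the species rests on the label. The stem libraries came from 1-year seedlings and the labellum libraries from 2-year seedlings of 1 genotype grown in a greenhouse. Root and leaf were likewise from 1-year seedlings, and bud and petal from 2-year seedlings. Tissue and seedling age therefore change together and cannot be told apart. The labels name neither the part of the stem nor the stage of the flower, and do not say whether separate plants were sampled for each library. If not, the p-values measure technical spread alone. In whole tissue, fewer cells of a type and less RNA per cell cannot be told apart.

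In Dendrobium the fleshy stem is a storage organ that holds water and polysaccharide, and in D. nobile it is the part known for the alkaloid dendrobine. The labellum is the modified middle petal of the orchid flower, which forms the landing place of a pollinator and often differs from the other petals in shape, colour and scent. The gene models carry identifiers that name a chromosome and a number along it, and the files pair none of them with a gene name or product. No tissue marker could therefore be checked, and no function is given for any model below.

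Total counts were 28699617 and 27175842 in stem and 28863056 and 30188499 in labellum, so the tissues were sequenced to a like depth. The stem libraries were much closer to each other than the labellum libraries were. The biological coefficient of variation between replicates was 0.0756 in stem and 0.292 in labellum, and 162 and 635 tested models differed at least 4-fold between the replicates of each tissue in that order. Both pairs differed by more than counting noise, the chi-square over its degrees of freedom being 4.53 in stem and 52.9 in labellum. Spearman's rho across the tested models was 0.995 between the stem libraries, 0.981 between the labellum libraries and 0.785 to 0.788 between the tissues. This last value chose the pair, as the highest between a vegetative and a floral tissue, and is a description. The next, labellum with leaf, ran from 0.772 to 0.777.

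Most models found in one tissue were found in the other as well. FPKM is the count divided by the coding length of the model and by the library total. Calling a model detected in a tissue when each of its 2 libraries reached 1 FPKM, 13566 models were detected in stem and labellum, 2000 in stem alone and 701 in labellum alone. The models of stem alone had a median of 3.61 FPKM there, 38 of them stood at 100 FPKM or more, and 162 had no count in either labellum library. The models of labellum alone had a median of 5.33 FPKM, 53 stood at 100 FPKM or more, and 62 had no count in stem. Of the 2000 models of stem alone, 69.0% were detected in leaf, 42.3% in root, 31.3% in bud and 17.9% in petal, and 304 in none of these. Of the 701 models of labellum alone, 80.5% were detected in petal, 72.9% in bud, 41.1% in root and 29.1% in leaf, and 45 in none of these. Most models of either list were thus detected in at least 1 further tissue.

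The most abundant transcripts were shared less. Of the 100 models with the highest mean FPKM in each tissue, 33 were in both sets. These 33 took 6.98% and 6.99% of counts in the stem libraries and 9.41% and 9.70% in the labellum libraries. The other 67 of stem took 13.4% of counts in each stem library and 1.61% and 1.57% in labellum, where their median rank was 1608. The other 67 of labellum took 9.18% and 9.51% of counts there and 1.31% and 1.32% in stem, where their median rank was 490. Of the 33 shared models, 24 were also among the 100 most abundant of leaf, 27 among those of petal, and 13 among those of all 6 tissues.

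A set of models had levels within 2-fold of each other in stem and labellum, which a missed p-value does not show. These are called steady here: the 95% interval of the log2 fold change lay between -1 and 1. They numbered 3102 of 19123 tested models (16.2%) and took 25.2% of counts in each stem library and 20.5% in each labellum library. The set moved with the fit, since 4696 models were steady with limma-voom, and 1887 and 1882 without stem replicates 1 and 2. It also depends on the scaling, since 3019 models were steady with library totals alone, 1991 of them among the 3102. Steady models were mostly well expressed: in 5 classes of nearly equal number by level over both tissues, they made up 32.2% of the highest class and 1.62% of the second lowest, and none fell in the lowest.

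The most abundant model of stem was steady by this measure. The short model evm.model.Chr09.2279-gene (coding length 237 bp, chromosome 9) was at 26712 and 27151 FPKM in stem and at 18100 and 15433 FPKM in labellum, where it ranked 3. The stem libraries lay above both labellum libraries, and the log2 fold change of labellum over stem was -0.35 with an interval of -0.94 to 0.23. That interval left the bounds in 8 of 21 alternatives, among them library totals and each fit without a stem, labellum or leaf library. The longer evm.model.Chr15.1768-gene (1944 bp, chromosome 15) stood at 2860 and 2845 FPKM in stem and 2256 and 2286 FPKM in labellum, an interval of -0.46 to 0.47.

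Near-equal FPKM was seen in evm.model.Chr09.1983-gene (546 bp, chromosome 9), with 1484 and 1500 FPKM in stem and 1497 and 1495 in labellum. Its fitted log2 fold change was 0.34, with an interval of -0.04 to 0.72. Fold changes here are relative to TMM scaling, a factor per library of 1.16 and 1.17 in stem and 0.936 and 0.914 in labellum, and FPKM is not scaled so. With library totals alone the median log2 fold change of labellum over stem moved from -0.08 to -0.42 over the tested models with a count in these tissues. The other steady models of highest level were evm.model.Chr12.132-gene (459 bp, chromosome 12, 2119 and 2103 against 1598 and 1409 FPKM), evm.model.Chr01.1255-gene (762 bp, chromosome 1, 1360 and 1341 against 1439 and 1419 FPKM) and evm.model.Chr12.1304-gene (333 bp, chromosome 12, 1263 and 1243 against 1384 and 1390 FPKM). All 6 of these models were among the 100 most abundant of both tissues.

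Large numbers of models differed between stem and labellum, about equally in each direction. A model was called when its adjusted p was under 0.05 in edgeR's quasi-likelihood test with Benjamini-Hochberg adjustment over all tested models and its change was at least 2-fold. By this rule 3690 models (19.3%) were higher in labellum and 3790 (19.8%) lower. With library totals in place of TMM scaling the counts were 2768 higher and 5012 lower, so that 35.6% of calls were higher in place of 49.3%, and the balance is relative to the scaling. The 2 libraries of one tissue all lay above those of the other for 3681 of the higher models and 3790 of the lower ones, and also for 82.7% of all tested models.

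The called models carried a large part of the messenger RNA of each tissue. Models higher in labellum took 52.8% ± 0.0238 of counts in labellum and 12.9% ± 0.0198 in stem (SD, n = 2). Models lower in labellum took 37.4% of counts in each stem library and 5.41% in each labellum library. These shares describe sets chosen by the same counts. Higher models were the more abundant ones, with a median of 55.4 FPKM in labellum, against 15.6 FPKM in stem for the lower models.

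Lower models more often fell to no count or under an FPKM of 1 in the other tissue. They also started lower, with a median of 15.6 FPKM in stem against 55.4 FPKM in labellum for the higher models. Of the models lower in labellum, 308 had no count in labellum and 1258 stayed under an FPKM of 1 in both of its libraries. Of the models higher in labellum, 116 had no count in stem and 603 stayed under an FPKM of 1 in both stem libraries. With such a 0 set to a floor of 3 counts over the tissue, 1159 higher and 1342 lower models differed at least 8-fold, and 93 and 88 at least 256-fold. These floors cover counting error only, as PCR copies are not independent molecules.

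**Figure D1:**
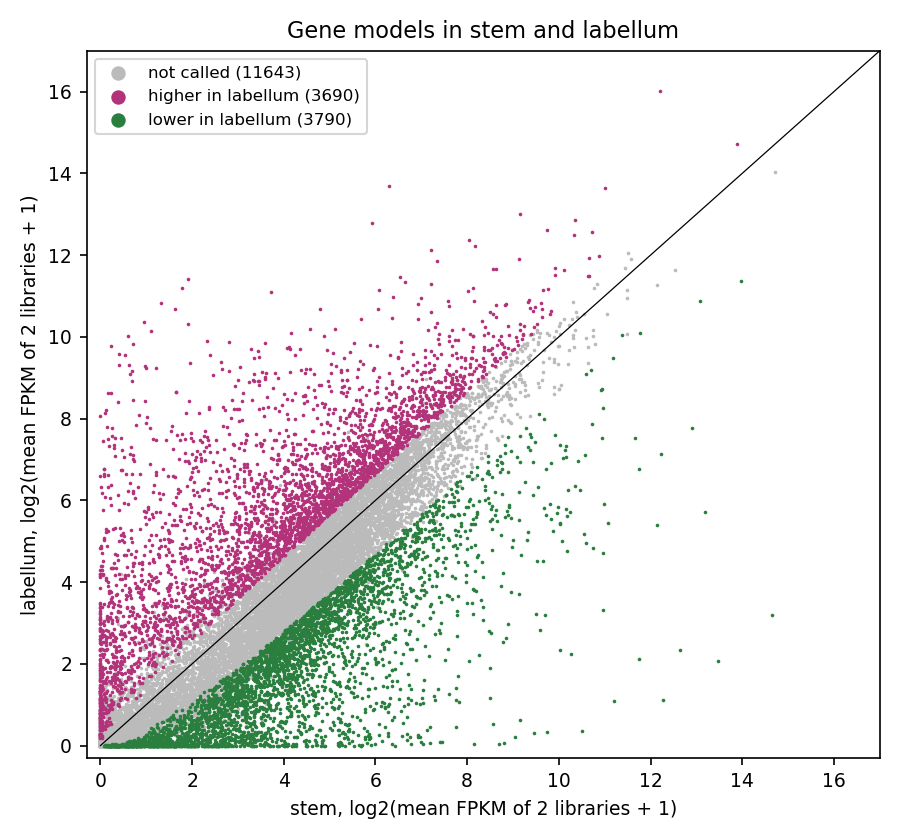
Mean level of each tested model in stem (horizontal axis) and labellum (vertical axis), as log2 of the mean FPKM of 2 libraries plus 1; the line marks equal levels. The 3690 called models higher in labellum lie above the line and the 3790 lower ones below it; grey points were not called.

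The models with the largest differences in favour of labellum were well expressed there and under 1 FPKM in both stem libraries. Models were ranked by fold only where the mean log2 CPM (counts scaled to the library total) over the 4 libraries was at least 3, since folds of rarer models rest on few counts. The 6 models met this limit through labellum, so it sets no floor in stem. Their stem counts were few, from 7 to 44 over the 2 libraries. The largest fold among these was that of evm.model.Chr12.947-gene (1863 bp, chromosome 12), which was at 942 and 799.6 FPKM in labellum and at 0.243 and 0.119 FPKM in stem. Its log2 fold change was 12.53 ± 0.55 (SE), or 13.15 without stem replicate 1. It was also at 104 FPKM in petal and 135 FPKM in bud on average, and at 0.253 in leaf and 0.412 in root, so it was high in the 3 floral tissues and highest in labellum.

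Next came evm.model.Chr10.562-gene (1677 bp, chromosome 10), at 185 and 376 FPKM in labellum and 0.0208 and 0.132 FPKM in stem. The second labellum library lay well above the first, and the log2 fold change of 12.15 ± 0.64 (SE) was 11.53 without labellum replicate 2, 11.36 without stem replicate 1 and 13.84 without stem replicate 2. In the other floral tissues it stood far lower, at 29.9 FPKM in bud and 8.17 FPKM in petal.

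The models evm.model.Chr08.1110-gene (675 bp, chromosome 8) and evm.model.Chr06.2326-gene (1503 bp, chromosome 6) were at 791 and 728 FPKM and at 353 and 430 FPKM in labellum, against 0.155 and 0.491 FPKM and 0.0464 and 0.318 FPKM in stem. Their log2 fold changes were 11.51 ± 0.41 and 11.40 ± 0.66 (SE). The first was 10.91 and 12.52 and the second 10.59 and 13.27 without stem replicates 1 and 2. Both were lower in petal (234 and 107 FPKM) and bud (137 and 136 FPKM) on average than in labellum.

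Of the last pair, evm.model.Chr17.2102-gene (1497 bp, chromosome 17) reached 1137 and 956 FPKM in labellum against 0.559 and 0.492 FPKM in stem, a log2 fold change of 11.28 ± 0.53 (SE). The model evm.model.Chr12.1033-gene (1692 bp, chromosome 12) had 196 and 245 FPKM in labellum and 0.0824 and 0.130 FPKM in stem, a log2 fold change of 11.32 ± 0.63. It alone of these 6 models was higher in petal (310 FPKM on average) than in labellum, and it was at 9.40 FPKM in leaf. Adjusted p values of the 6 models lay between 2.27e-07 and 1.27e-06 (edgeR, Benjamini-Hochberg).

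The most abundant models among those higher in labellum were also abundant in stem, with 1 exception. The top transcript of labellum, evm.model.Chr12.691-gene (363 bp, chromosome 12), was at 67621 and 63977 FPKM there and at 4673 and 4733 FPKM in stem, where it ranked 13. Its log2 fold change was 4.14 ± 0.36 (SE). Rank 2 in labellum and rank 4 in stem belonged to evm.model.Chr10.687-gene (321 bp, chromosome 10), with 26939.7 and 26952 FPKM in labellum against 15190.4 and 15052 FPKM in stem. Its log2 fold change of 1.17 ± 0.20 is near the threshold, and was 0.83 with library totals alone and 0.63 with the trend with length removed.

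Its numbered neighbour evm.model.Chr10.688-gene (777 bp) was at 11266 and 14086 FPKM in labellum and 2054 and 2080 in stem, a log2 fold change of 2.95 ± 0.25 (SE). The exception was evm.model.Chr07.979-gene (573 bp, chromosome 7), which went from 75.3 and 79.3 FPKM in stem to 13991 and 12458 FPKM in labellum, a log2 fold change of 7.75 ± 0.38, the largest of these 6. It ranked 4 in labellum and 2379 in stem, and stood at 13555 FPKM in petal and 13370 FPKM in bud on average. The models evm.model.Chr01.1203-gene (450 bp, chromosome 1) and evm.model.Chr13.730-gene (753 bp, chromosome 13) had log2 fold changes of 4.18 ± 0.31 and 2.84 ± 0.33. Adjusted p values of the 6 models lay between 6.16e-07 and 0.000994 (edgeR, Benjamini-Hochberg).

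In the other direction and with the same limit on level, the largest differences belonged to models that were abundant in stem and, except for 1 model in leaf and 1 in root, low in the other tissues. These 6 models met the limit through stem, and their labellum counts were 5 to 109 over the 2 libraries. On chromosome 1, 3 of the 6 models fell within a few numbers of each other. There evm.model.Chr01.231-gene (1650 bp) was at 351 and 540 FPKM in stem and 0.0210 and 0.0803 FPKM in labellum, evm.model.Chr01.234-gene (987 bp) at 563 and 489 FPKM against 0.140 and 0.168, and evm.model.Chr01.236-gene (1113 bp) at 1410 and 1510 FPKM against 0.156 and 0.417. Their log2 fold changes were -12.68 ± 1.39, -11.36 ± 1.34 and -11.95 ± 1.40 (SE). The first was -12.04 and -13.88 without labellum replicates 1 and 2, and the third -12.84 without labellum replicate 2. In root, the next highest tissue, the 3 models had no count in replicate 1 and stood at 3.21, 5.56 and 5.10 FPKM in replicate 2.

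The model evm.model.Chr06.2367-gene (1569 bp, chromosome 6) ranked 11 in stem, with 4995 and 4938 FPKM against 1.41 and 0.9501 FPKM in labellum, a log2 fold change of -11.70 ± 2.14 (SE). On the same chromosome evm.model.Chr06.2396-gene (1572 bp) was at 854 and 855 FPKM in stem and 0.265 and 0.253 FPKM in labellum, a log2 fold change of -11.34 ± 0.74. It was the only one of the 6 with a high level in leaf, 105 FPKM on average. On chromosome 19, evm.model.Chr19.1034-gene (498 bp) was at 11311 and 11350 FPKM in stem and 3.06 and 3.33 FPKM in labellum, a log2 fold change of -11.45 ± 1.20. Adjusted p values of the 6 models lay between 2.12e-06 and 0.00137 (edgeR, Benjamini-Hochberg).

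**Figure D2:**
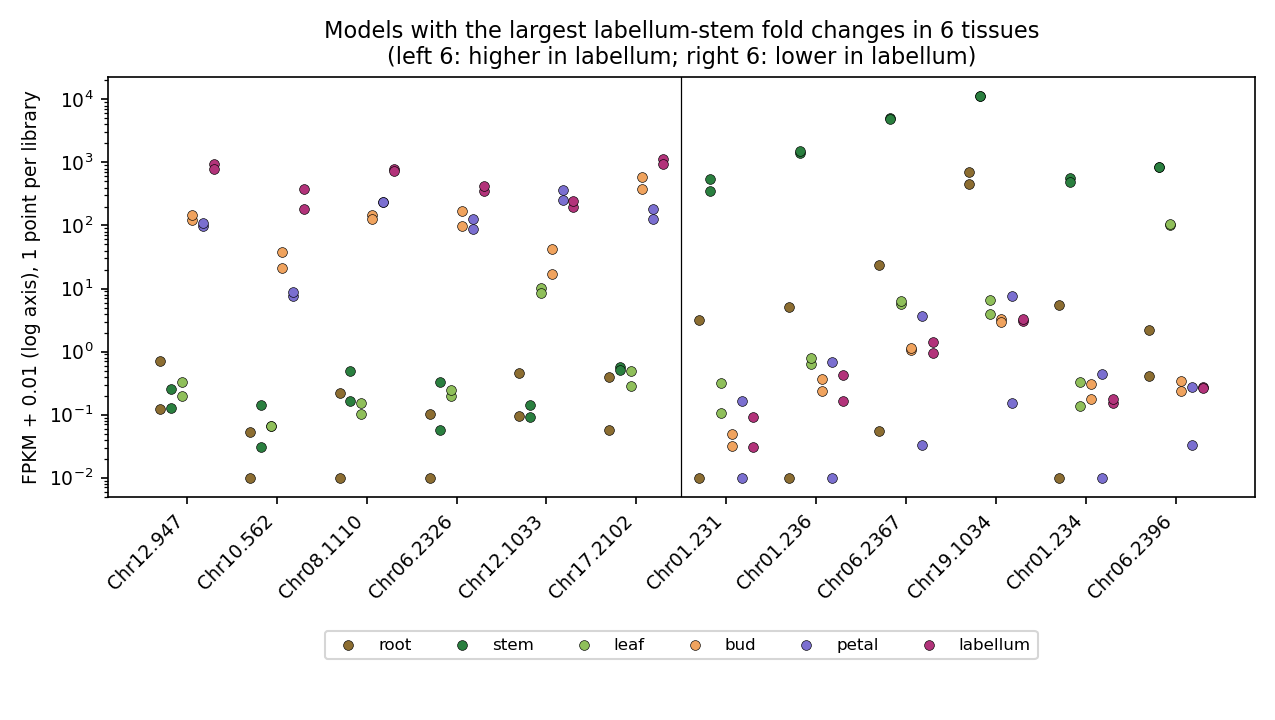
FPKM plus 0.01 on a log axis for the 6 models with the largest fold in each direction, with 1 point per library in each of 6 tissues. The left 6 models are high in labellum and low in stem, and Chr10.562 is far lower in petal and bud than in labellum; the right 6 are high in stem, and of these Chr19.1034 is also raised in root and Chr06.2396 in leaf.

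Some of the most abundant transcripts of stem were almost missing from labellum. Rank 2 in stem, evm.model.Chr19.1029-gene (498 bp, chromosome 19), was at 25912 and 25776 FPKM in stem and took 1.29% ± 0.0048 of its counts (SD, n = 2). In labellum it was at 6.75 and 9.45 FPKM, a log2 fold change of -11.30 ± 1.51 (SE). In root it was at 343 and 921 FPKM. It has the same coding length as evm.model.Chr19.1034-gene, which ranked 5 in stem. Since the counting rule is not given, values of such near neighbours of equal length may share reads and are uncertain one by one.

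Other abundant stem models kept a clear level in labellum. At ranks 3 and 7 of stem, evm.model.Chr18.2396-gene (612 bp, chromosome 18) and evm.model.Chr10.172-gene (969 bp, chromosome 10), had log2 fold changes of -2.28 ± 0.28 and -1.89 ± 0.23 (SE) and still ranked 32 and 51 in labellum. In contrast evm.model.Chr17.53-gene (1059 bp, chromosome 17) fell from 9412 and 9339 FPKM in stem to 42.1 and 61.4 FPKM in labellum, a log2 fold change of -7.16 ± 0.38. The model evm.model.Chr05.1115-gene (663 bp, chromosome 5) fell from 7666 and 7615 FPKM to 272 and 163 FPKM, a log2 fold change of -4.80 ± 0.29. These last 2 models were also abundant in leaf, at 3072 and 12363 FPKM on average. Adjusted p values of the 6 most abundant lower models, the pair on chromosome 19 included, lay between 7.92e-07 and 0.00019 (edgeR, Benjamini-Hochberg).

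Models with neighbouring numbers tended to be called in the same direction. Of the models called higher in labellum whose next number was also tested, 25.3% (650 of 2570) had that neighbour called higher, against 19.4% of all tested neighbours. For the lower models the share was 26.0% (694 of 2667) against 19.9%. The opposite call stood next to 16.3% of the higher and 16.1% of the lower models. Neighbours of exactly equal coding length were few (144 pairs) and moved together more: 34 of 48 (70.8%) had the next model higher too, against 31.9% of all equal-length pairs, and 17 of 31 (54.8%) had the next model lower, against 20.8%. Among neighbours of unequal length the shares were 24.4% against 19.3% and 25.7% against 19.9%. Near neighbours of equal length may share reads, and the part of shared reads in these shares was not tested. These are descriptions, and no test was made of them.

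Runs of at least 5 consecutive numbers called in one direction numbered 7 for the higher and 11 for the lower models. The longest run of lower models held 6, evm.model.Chr15.1196-gene to evm.model.Chr15.1201-gene on chromosome 15, of which the 4 in the middle have a coding length of 1533 bp and the outer ones 1542 and 1521 bp. Each was higher in stem than in labellum, without overlap of the libraries. The 4 of equal length may share reads, so their values are uncertain one by one. In number order their FPKM was 107 and 109, 11.5 and 9.10, 97.9 and 94.0, 228 and 219.6, 710.3 and 701.5, and 284 and 279.5 in the stem libraries.

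The same 6 models spanned a wide range in labellum, from 12.1 and 5.49 FPKM for evm.model.Chr15.1198-gene to 1 count in each library for evm.model.Chr15.1201-gene. For the latter the pooled share of counts was 12653 times higher in stem (95% interval from counting error 3503 to 104480). For evm.model.Chr15.1196-gene, with 3 counts in labellum, the ratio was 3280 (1122 to 15904). It was 5030.02 without labellum replicate 1 and 2404.59 without labellum replicate 2. The log2 fold changes of the middle 4 were -5.51 ± 0.87, -3.12 ± 0.50, -7.33 ± 0.62 and -11.15 ± 0.86 (SE). The values for evm.model.Chr15.1198-gene and evm.model.Chr15.1199-gene were -3.77 and -8.07 without labellum replicate 1, and that for evm.model.Chr15.1200-gene was -11.78 without labellum replicate 2. Adjusted p values of the run lay between 5.14e-06 and 0.000652 (edgeR, Benjamini-Hochberg). In leaf the middle 4 were at 0.0102 to 0.288 FPKM on average.

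The longest run of higher models held 7, evm.model.Chr13.1528-gene to evm.model.Chr13.1534-gene on chromosome 13, and its members were less alike. Their coding lengths ran from 228 to 1584 bp and their log2 fold changes from 1.34 to 6.38. The largest was that of evm.model.Chr13.1532-gene (384 bp), at 17.7 and 20.96 FPKM in labellum and 0.454 and 0.0958 FPKM in stem, with a log2 fold change of 6.38, or 7.79 and 5.71 when stem replicate 1 or 2 was left out. The last member, evm.model.Chr13.1534-gene (1164 bp), was at 158 and 121 FPKM in labellum and 4.07 and 2.97 in stem, a log2 fold change of 5.64 ± 0.35 (SE). The length of the run depends on evm.model.Chr13.1530-gene, whose adjusted p was 0.0291 (edgeR, Benjamini-Hochberg) and which lost its call in 10 of 23 alternatives. Among the others, evm.model.Chr13.1531-gene lost its call in 3, evm.model.Chr13.1529-gene in 2 and evm.model.Chr13.1528-gene in 1.

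The neighbourhoods of the named models on chromosomes 1 and 10 were looked at after their values were seen. Around the 3 stem models of chromosome 1, evm.model.Chr01.227-gene to evm.model.Chr01.231-gene formed a run of 5 called lower, and the 5 models numbered between and just after the named ones had no count in labellum and at most 0.00794 FPKM in stem. Around evm.model.Chr10.562-gene, 3 more models were high in labellum and at traces in stem. These were evm.model.Chr10.559-gene (1524 bp, 72.1 and 143 FPKM in labellum), evm.model.Chr10.563-gene (384 bp, 32.7 and 160 FPKM) and evm.model.Chr10.565-gene (1560 bp, 25.8 and 29.4 FPKM).

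In stem, evm.model.Chr10.563-gene had no count and was at least 700.0-fold higher in labellum, or at least 234-fold without labellum replicate 2, 1150.0-fold without labellum replicate 1, and 341-fold and 360.0-fold without stem replicates 1 and 2. The model evm.model.Chr10.565-gene had 1 count in stem, and its pooled share of counts was 2410.0 times higher in labellum (95% interval from counting error 433 to 95200.0; 1170.0 without stem replicate 1, and at least 413-fold higher without stem replicate 2, which held the count). In petal the 3 models were at 0.0926, 2.13 and 0 FPKM on average and in bud at 12.2, 5.09 and 0.0526 FPKM, so evm.model.Chr10.565-gene was high in labellum and in no other tissue. Between them, evm.model.Chr10.560-gene and evm.model.Chr10.561-gene stayed under 1 FPKM in all 4 libraries.

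**Figure D3:**
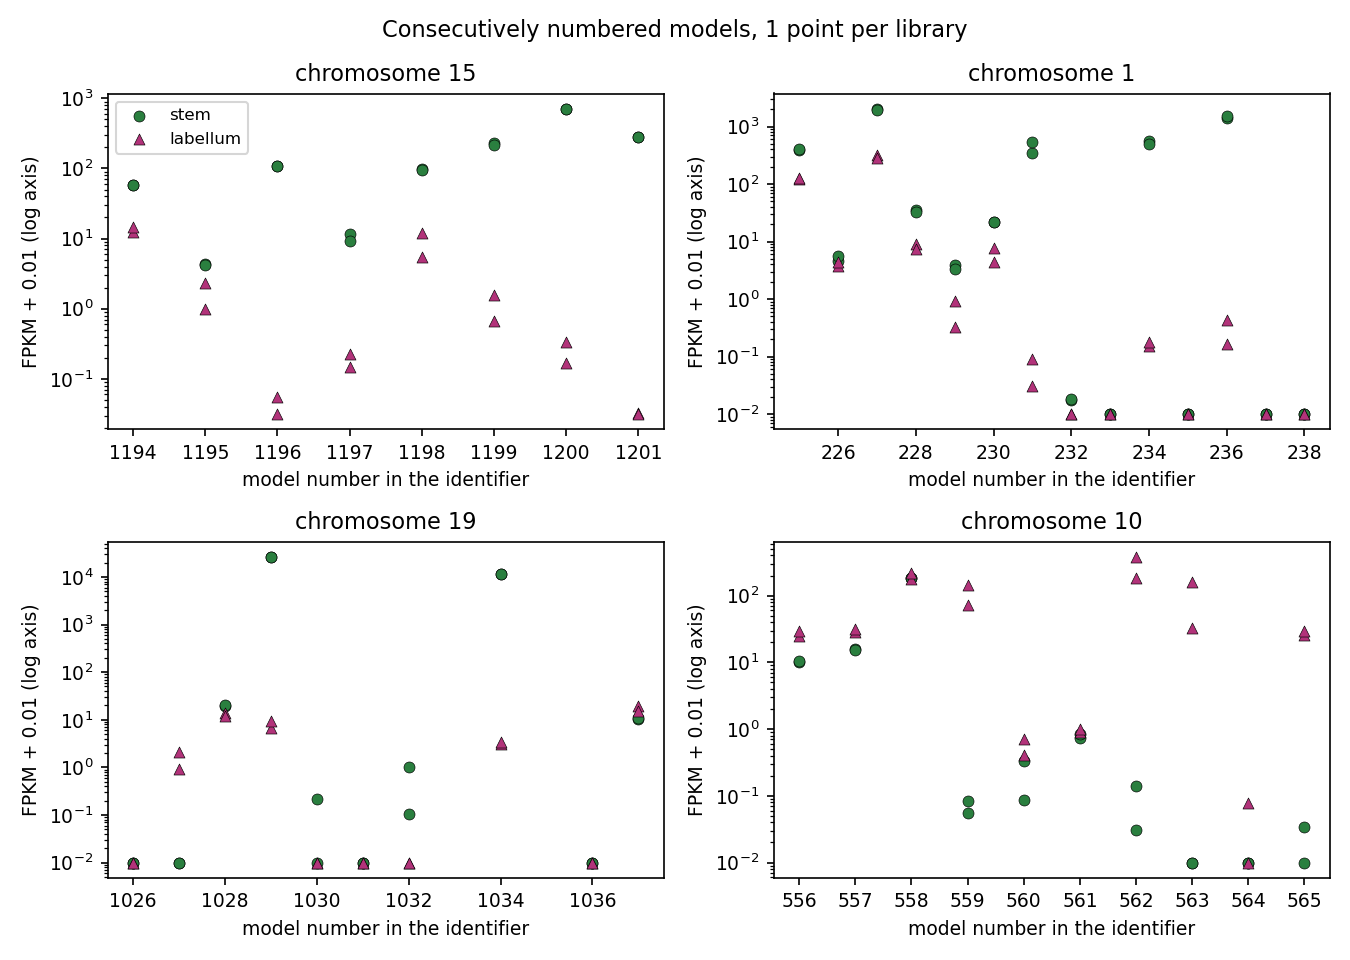
FPKM plus 0.01 on a log axis (vertical) against the model number in the identifier (horizontal), with circles for the 2 stem libraries and triangles for the 2 labellum libraries. On chromosome 15 a run of 6 models lies higher in stem. On chromosomes 1 and 19 the stem models stand near some models with next to no counts and others expressed in both tissues. On chromosome 10, 4 models lie far higher in labellum.

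Models that differed between stem and labellum often peaked in another tissue. Of the 3690 models higher in labellum, the highest mean FPKM among the 6 tissues was in bud for 28.2%, in petal for 27.1%, in labellum for 23.3% and in root for 19.1%. Of the 3790 models lower in labellum, it was in stem for 49.3%, in leaf for 29.8% and in root for 16.1%. Of the 3102 steady models, 993 peaked in root and 74 in labellum. Over all tested models 23.7% peaked in root, 21.3% in stem, 20.6% in bud, 17.8% in leaf, 9.12% in petal and 7.57% in labellum, so the root shares of both called sets lay below that of all models.

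The pair of petal and leaf, which shares no library with stem and labellum, gave a second floral-to-shoot difference for the same models. Leaf came from 1-year and petal from 2-year seedlings, so tissue and seedling age change together in this pair too and cannot be told apart. Across the 19123 tested models the log2 fold changes of the 2 pairs had a Spearman's rho of 0.713 and a Pearson's r of 0.684. This is a correlation across models, which are not replicates, and all libraries share 1 fit and its scaling. Of the models higher in labellum than in stem, 78.3% were called higher in petal than in leaf and 1.36% lower. Of the models lower in labellum, 70.1% were called lower in petal and 3.35% higher. Over all tested models 23.5% were called higher and 24.2% lower in petal than in leaf.

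A test of the difference between these 2 differences showed where stem and labellum stood apart from leaf and petal. In the same edgeR fit, 2589 models (13.5%) passed an adjusted p of 0.05 and a 2-fold difference, 1360 (7.11%) with labellum over stem above petal over leaf and 1229 (6.43%) below. These numbers fell whichever library of stem, labellum, leaf or petal was left out, which leaves that tissue with 1 library. They rose when a bud or root library was left out, although the contrast uses neither tissue. All tissues share 1 fit, and the biological coefficient of variation was 0.575 in bud against 0.0756 in stem. The cause was not tested. The pairs went in opposite called directions for 50 models higher in labellum than in stem and lower in petal than in leaf, and for 127 the other way round.

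Among models with a mean log2 CPM of at least 3 over all 12 libraries, the 2 with the largest difference in each direction were named. Of these, evm.model.Chr12.1032-gene (1692 bp, chromosome 12) was at 0.144 and 0.478 FPKM in stem, 328 and 353 in labellum, 71.2 and 69.6 in leaf and 96.6 and 168 in petal. Labellum was far above stem, while petal over leaf had a log2 fold change of 1.16. The difference of log2 fold changes was 9.27 ± 0.79 (SE), and 10.39 without stem replicate 2. Its neighbour of equal length, evm.model.Chr12.1033-gene, is described above, so reads of this pair may be shared. The model evm.model.Chr05.937-gene (666 bp, chromosome 5) was lower in both flower organs, with 937 and 948 FPKM in stem, 36.1 and 37.9 in labellum, 2556 and 2572 in leaf and 0.341 and 0.106 in petal. Its log2 fold changes were -4.34 ± 0.29 for labellum over stem and -13.16 ± 0.45 for petal over leaf, a difference of 8.83 ± 0.48, or 9.91 and 8.24 without petal replicates 1 and 2. The adjusted p values of these differences were 0.000186 and 2.31e-05 (edgeR, Benjamini-Hochberg).

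In the other direction stood the pair of chromosome 19, evm.model.Chr19.1034-gene and evm.model.Chr19.1029-gene. In leaf they were at 3.89 and 6.66 FPKM and at 10.1 and 13.4 FPKM, and in petal at 7.74 and 0.142 FPKM and at 16.98 and 0.142 FPKM. The petal libraries thus differed far more than those of stem. The differences of log2 fold changes were -11.33 ± 1.38 and -11.13 ± 1.71 (SE), with adjusted p values of 0.000828 and 0.00261 (edgeR, Benjamini-Hochberg). Without petal replicate 1 they were -6.55 and -5.24, the second with an adjusted p of 0.189 by the same edgeR test and no longer called. Without petal replicate 2 they were -12.29 and -12.11. All 6 models of the run on chromosome 15 passed the test of the difference, with differences of log2 fold changes from -12.05 to -6.52. Of all models lower in labellum 23.5% passed this test in either direction, and of all tested models 13.5%. The run was chosen by labellum over stem, which is part of the tested difference, so this count is no separate result. The petal over leaf values of the 6 models were split. In number order from evm.model.Chr15.1196-gene to evm.model.Chr15.1201-gene, petal over leaf had log2 fold changes of -4.70, 3.98, 4.38, 3.69, -0.53 and -1.06, the second of them with 1 count in leaf. For petal over leaf the first 4 were called and the last 2 were not.

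**Figure D4:**
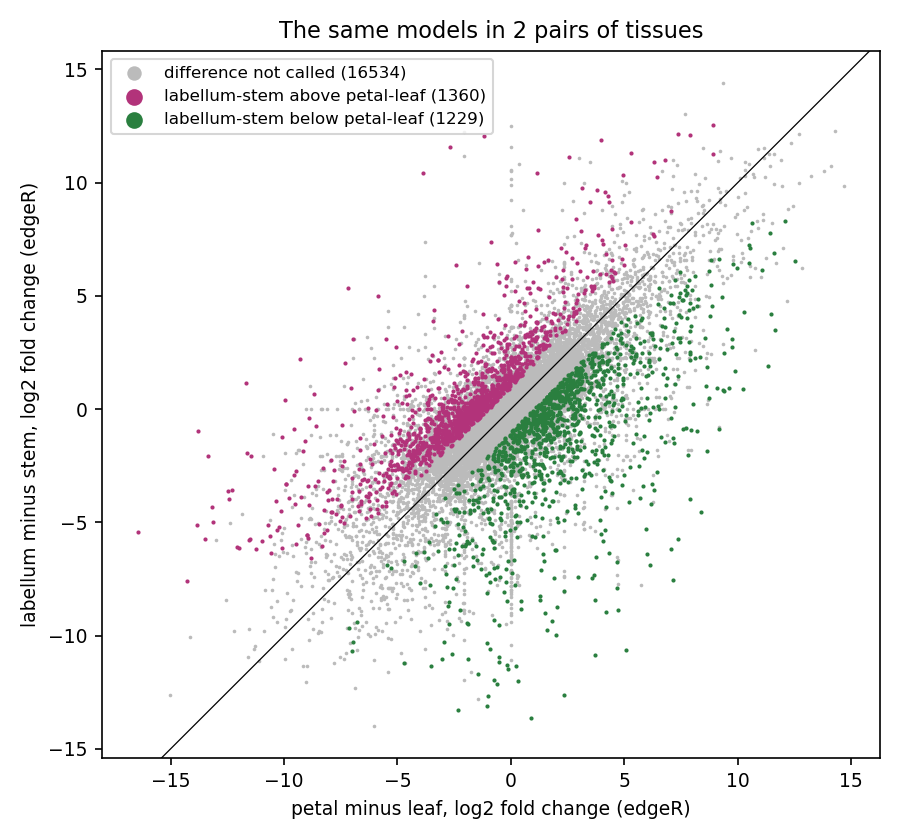
Log2 fold change of labellum over stem (vertical axis) against that of petal over leaf (horizontal axis) for each tested model; the line marks equal values. Spearman's rho of the 2 fold changes was 0.713 across models. The 1360 and 1229 coloured models passed the test of the difference, above and below the line.

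Coding length moved with the comparison. Models were put in 5 classes of nearly equal number by length, the first of 153 to 606 bp and the last of 1893 to 16149 bp, and the median log2 fold change of labellum over stem was 0.55, 0.26, 0.01, -0.28 and -0.66. The shortest class had 1109 models higher and 461 lower in labellum, and the longest had 321 higher and 1105 lower. Median coding length was 873 bp for the higher models, 1386 bp for the lower ones, 1311 bp for the steady ones and 1134 bp for all tested. Models under 600 bp took 15.3% of counts in each stem library and 23.3% and 22.6% in the labellum libraries. Spearman's rho of fold change with length was -0.221 across models, and -0.277 for petal over leaf. Once the length trend was taken out of every library, calls numbered 3533 higher (3126 shared with those above) and 3264 lower (3018 shared).

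**Figure D5:**
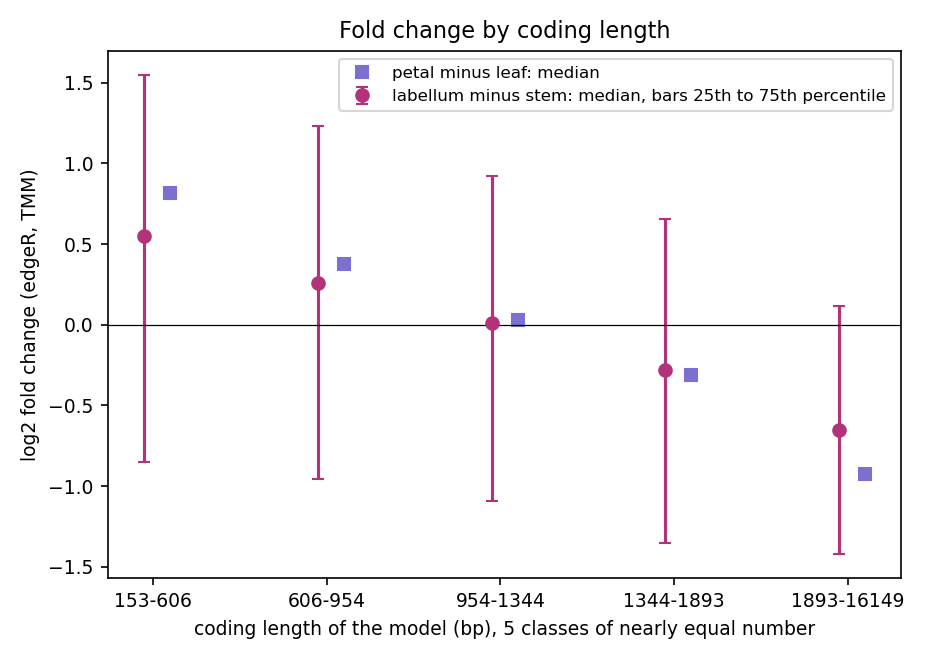
Median log2 fold change of labellum over stem (circles, with bars from the 25th to the 75th percentile of models) and of petal over leaf (squares) in 5 classes of coding length in bp. Both medians fall from the shortest to the longest class, for labellum over stem from 0.55 to -0.66.

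Level moved with the comparison too. From the lowest to the highest of the 5 level classes the median log2 fold change of labellum over stem was -0.95, -0.51, -0.10, 0.09 and 0.35. The lowest class had 361 models called higher (9.44%) and 729 lower (19.1%), and the highest had 1089 higher (28.5%) and 544 lower (14.2%). Called models were spread over the 19 chromosomes, with 34.6% of the tested models called on chromosome 11 and 42.1% on chromosomes 12 and 13, against 39.1% over all. Some chromosomes had more models higher, with the widest gap on chromosome 11 (19.1% higher, 15.5% lower). Others had more lower, with the widest gap on chromosome 8 (16.2% higher, 20.9% lower).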

How the data were processed

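Per the labels' protocols, RNA came from an Rneasy kit and libraries from a SMARTER kit for mRNA. No source used here names the aligner, the counting program or the use of strand. The submitters' processing notes name GRCm38 and mm10, which are mouse builds, while the identifiers are orchid gene models on 19 chromosomes and some scaffolds. The authors deposited raw counts, not normalised, for 31672 models in 12 libraries. The authors also deposited FPKM for these models. FPKM equalled count over length and library total in 100% of 224365 values, within 0.01 bp of 1 length per model. All lengths were multiples of 3 and are called coding lengths.

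Counts went into edgeR 4.0.16 (R 4.3.3; filterByExpr, TMM, quasi-likelihood) with a mean per tissue over all 12 libraries and 6 residual degrees of freedom, and 19123 models were tested. The script was checked on simulated counts with the same spread in every model and tissue, so the check does not cover the unequal spread of these tissues. Contrasts were labellum minus stem, petal minus leaf, and their difference. A standard error is the fold change over the root of its F and is approximate where a tissue has few counts. It rests on the replicate spread of all 12 libraries, not on that of the contrasted tissues alone. Steady models leave out 271 tested models with no count in stem and labellum. Alternatives used DESeq2 1.42.0, limma 3.58.1, other scalings and filters, a replicate block and each library left out. Log2 fold changes of named models without a library are printed only where they moved beyond a set bound. The labels tie no replicate numbers together.

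Tissues, tests and lists were chosen with earlier results of these data known. Named by rule were, per direction, the 6 called models with the largest fold (mean log2 CPM of at least 3 over the 4 libraries, no overlap), the 6 most abundant called ones, the 2 with the largest difference from petal and leaf (mean log2 CPM of at least 3 over all 12 libraries), and the longest run. The 6 steady models of highest level and the top model of each tissue were named as well.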

Additional observations from a re-analysis of the deposited data

Results flagged for a closer look

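The difference between labellum and stem was tested against that between petal and leaf, and 2589 models passed. Of these, the models named by rule were evm.model.Chr12.1032-gene, with labellum over stem above petal over leaf by 9.265 on the log2 scale, and evm.model.Chr05.937-gene, above by 8.825. The models evm.model.Chr19.1034-gene and evm.model.Chr19.1029-gene stood at -11.33 and -11.13. In the 20 alternatives run for each, the first 3 of these kept their call and their direction, and the fourth lost its call without petal replicate 1, at -5.24.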

How the results depend on the processing

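Under other scalings, filters, tools and left-out libraries, 2565 to 4034 models were higher and 2858 to 5173 lower in labellum at 2-fold. At least 4-fold there were 1910 and 2216, and at least 8-fold 1184 and 1395. The median log2 fold change, -0.08 as reported, was -0.10 with DESeq2 or its size factors, -0.42 with library totals, -0.15 with no filter on low counts, -0.052 with a CPM filter, -0.057 with the 4 libraries alone, -0.11 with voom, 0.044 without the length trend, and -0.27 and -0.40 with limma on log2 FPKM plus 1 and plus 0.1. Leaving out a library gave -0.13 to -0.056. Spearman's rho with length, -0.221, was -0.180 with no filter, -0.264 with a CPM filter, -0.240 with the 4 libraries alone, -0.00860 without the trend, -0.238 with limma on FPKM plus 1, and -0.221 to -0.186 with a library left out. Voom gave 4696 steady models, with 2460 above and 2256 below in the test against petal and leaf. Leaving out a library gave 1882 to 4134 steady models, 644 to 2039 above and 596 to 1761 below. Among the 500 most abundant models, 252 were shared. The cause of these shifts was not tested.

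With a replicate block, 3605 models were higher and 3589 lower, 2955 were steady, and 1189 and 1073 passed the test against petal and leaf. Replicate deviations of stem and labellum correlated at -0.005, which cannot settle whether the replicate numbers pair the libraries. Among all tissue pairs the values largest in size were -0.3 for bud with labellum and 0.117 for bud with petal. Of 46 values for named models, 39 kept their call in every alternative run, and none reversed.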

Other observations

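The 6 models with the largest folds in favour of stem had low counts in most other libraries, unequal between replicates. In petal replicate 1 they had 8 to 174 counts and in petal replicate 2 they had 0 to 2. The model evm.model.Chr01.236-gene had 0 counts in root replicate 1 and 30 in root replicate 2, although root replicate 2 was the shallowest library. The model evm.model.Chr06.2367-gene had 1 and 198 counts in the root libraries and 174 and 1 in the petal libraries. In labellum the 6 models had 1 to 64 counts in a library, and the part of such low counts in the folds was not tested.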
